A study of Mus musculus with 7 samples.

Results

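The genes described here are 8 surface markers used to separate blood stem cells from their progeny, read in the EML line, a mouse haematopoietic progenitor line. They are Slamf1, Cd48, Cd244, Ly9 and Cd84, which belong to the SLAM family of receptors, and Cd27, Procr and Prom1. They were chosen by name, each had 1 row in the deposited table, and they make up 8 of 20142 symbols listed once. RNA was sequenced from 3 libraries of CD34-positive and 4 libraries of CD34-negative EML cells, sorted after dead cells had been removed with Annexin V. EML is an established line that depends on stem cell factor and was made with a dominant-negative retinoic acid receptor, so all 7 libraries share 1 line and its transgene. The labels name the strain C57BL/6, bone marrow as the tissue and an age of postnatal day 14.7 for every library, although the source is the line. No drug or other treatment is named for either group. The genotype label of the CD34-negative libraries reads CD43, and their titles, which read CD34, were followed. Each library also carries a number in its description, which is 3a for CD34-positive replicate 1, 3 for CD34-negative replicate 1 and 2 for replicate 2 of both groups. CD34-positive replicate 3 and CD34-negative replicate 3 carry the number 4, and CD34-negative replicate 4 carries 4a.

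SLAM receptors are immunoglobulin-type proteins that bind their own kind on a neighbouring cell, with the exception of CD244 and its ligand CD48, which bind each other. Their tails recruit small adaptors of the SAP family, while CD48 is held by a lipid anchor and has no tail. In mouse bone marrow, CD150 (the product of Slamf1) without CD48 and CD244 marks stem cells, and more restricted progenitors carry CD48 and CD244. CD27 is a receptor of the tumour necrosis factor family that appears on progenitors, EPCR (the product of Procr) is the protein C receptor and marks stem cells, and prominin (the product of Prom1) is a membrane protein used as a stem cell marker in human blood.

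The 5 SLAM members lie in 1 cluster on mouse chromosome 1, in the order Cd244, Ly9, Cd48, Slamf1 and Cd84, per RefSeq (GRCm38.p6). The symbol Cd244 of the deposited table is the RefSeq gene Cd244a. Promoter sequences from RefSeq were matched for 7 of the 8 genes, and Ly9 had no entry. The 250 bases before the start are shown for the 4 genes whose level could be tested, because they share 1 cluster and the comparison of the groups rests on them. Coordinates are those of GRCm38.p6. Capitals mark matches, on either strand, to a GATA motif (AGATAA), a RUNX motif (TGTGGT), an ETS motif (AGGAAG) or a TCF motif (CTTTGA), none of which overlap here.
Cd48 (chr1:171681742-171681991, strand +): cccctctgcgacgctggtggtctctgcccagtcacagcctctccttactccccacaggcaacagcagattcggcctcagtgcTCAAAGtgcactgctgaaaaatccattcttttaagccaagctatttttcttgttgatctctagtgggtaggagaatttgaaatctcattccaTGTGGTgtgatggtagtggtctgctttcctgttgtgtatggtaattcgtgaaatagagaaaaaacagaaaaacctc
Cd244 (chr1:171558943-171559192, strand +): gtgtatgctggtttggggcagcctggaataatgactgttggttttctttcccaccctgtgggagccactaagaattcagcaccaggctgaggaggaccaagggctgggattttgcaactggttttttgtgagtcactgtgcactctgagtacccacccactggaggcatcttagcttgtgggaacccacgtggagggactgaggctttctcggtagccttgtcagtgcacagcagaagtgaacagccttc
Slamf1 (chr1:171766882-171767131, strand +): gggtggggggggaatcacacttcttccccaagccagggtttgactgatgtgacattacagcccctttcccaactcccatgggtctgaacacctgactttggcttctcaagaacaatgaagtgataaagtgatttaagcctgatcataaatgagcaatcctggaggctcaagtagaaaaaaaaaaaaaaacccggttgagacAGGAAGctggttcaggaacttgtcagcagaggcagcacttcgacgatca
Cd84 (chr1:171839447-171839696, strand +): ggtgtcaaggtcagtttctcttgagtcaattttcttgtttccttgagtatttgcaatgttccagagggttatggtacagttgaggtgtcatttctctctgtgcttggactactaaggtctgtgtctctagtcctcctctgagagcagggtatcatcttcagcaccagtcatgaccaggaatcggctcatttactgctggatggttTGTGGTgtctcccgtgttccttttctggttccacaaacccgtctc

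The Cd48 window held 1 RUNX match, which begins 76 bases before the start, and 1 TCF match on the opposite strand, 168 bases before it. The Cd84 window held 1 RUNX match, the Slamf1 window held 1 ETS match, and the Cd244 window held none of the 4 motifs. Over all 32851 promoter windows of the same length, 14.0% held the RUNX motif, 13.8% the TCF motif, 29.5% the ETS motif and 9.99% the GATA motif. A match describes letters only and does not show that a factor binds there.

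Levels are given in FPKM, which counts fragments per unit of transcript length and of sequencing output, so that genes can be compared with each other. How many fragments lie behind a value is unknown. Between 8606 and 9117 symbols reached 1 FPKM in each library. Libraries numbered 4 and 4a stood apart in both groups, with 2.15% to 3.996% of summed FPKM in ribosomal protein genes against 25.6% to 33.9% in the others, and with 7.998% to 39.5% in small RNA genes against 0.0644% to 0.30%. The median difference of log2(FPKM + 1) over all tested genes was 0.09. The 8 listed markers of the EML progenitor state, among them Kit, Tal1 and Myb, reached 1 FPKM in every library. The gene of the sorted marker, Cd34, stood at 147, 256 and 153 FPKM in CD34-positive replicates 1, 2 and 3, against 91.8, 19.3, 2.67 and 6.02 FPKM in CD34-negative replicates 1 to 4. CD34-negative replicate 1 was the one CD34-negative library with a high level, and it also held 73.2 FPKM of Ly6a, against at most 11.9 FPKM in the other CD34-negative libraries.

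The order of levels was much the same in both groups. Cd48 led in all 7 libraries, Cd84 and Cd244 came next, Slamf1 and Ly9 followed, and Cd27, Procr and Prom1 stood near or at 0. Cd84 and Cd244 did not differ beyond their spread and changed places between libraries. In CD34-positive cells every library had more Cd84 and Cd244 than any had Slamf1, while in CD34-negative cells both overlapped with Slamf1 between libraries. Within each single library of either group, Cd84 and Cd244 both exceeded Slamf1. Slamf1 and Ly9 overlapped in CD34-positive cells and not in CD34-negative cells. Cd48 held 77.7% to 89.3% of the summed FPKM of the 5 SLAM members in CD34-positive and 59.4% to 90.9% in CD34-negative libraries. In the ranking of all symbols, Cd48 stood above 96.9% to 99.2% of them in CD34-positive and above 88.2% to 97.0% in CD34-negative libraries.

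**Figure D1:**
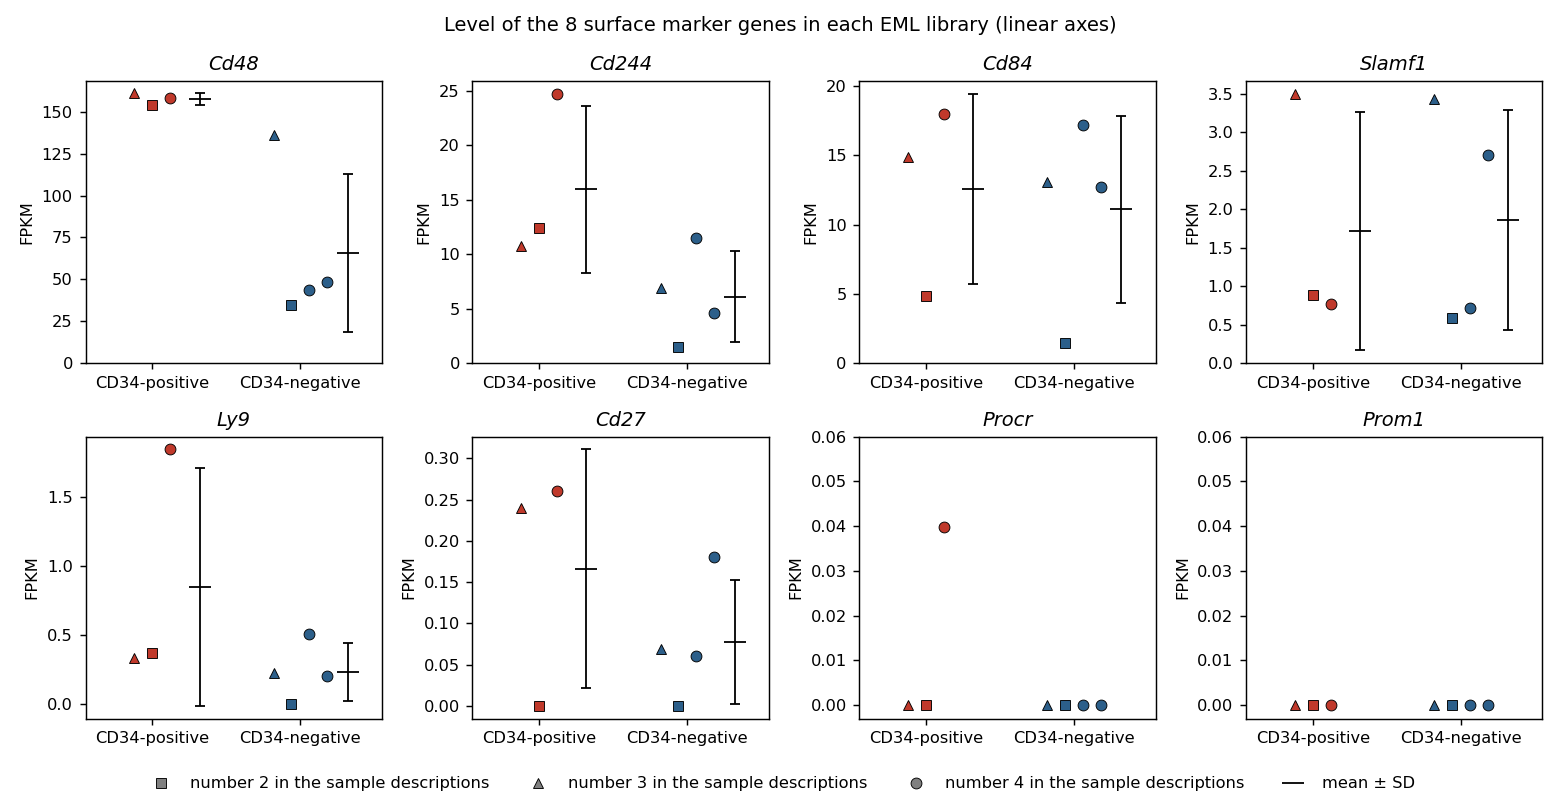
FPKM of the 8 genes in each library, CD34-positive left of CD34-negative, 1 panel per gene with its own linear axis. Marker shapes give the number in the sample description (4 includes 4a), and bars give the mean and SD where most libraries are above 0. The 3 CD34-positive libraries lie between 154 and 161 FPKM for Cd48, above every CD34-negative library, while the groups overlap for the other genes.

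Cd48, whose product is the ligand of CD244, had higher values in all 3 CD34-positive libraries than in any CD34-negative library. It stood at 161, 154 and 158 FPKM in CD34-positive replicates 1, 2 and 3, against 136, 34.6, 43.7 and 48.2 FPKM in CD34-negative replicates 1 to 4. The 3 CD34-positive libraries were nearly level, and of the CD34-negative libraries only replicate 1 came close to them. The mean was 158 ± 3.51 FPKM in the CD34-positive libraries (SD, n = 3), against 65.6 ± 47.3 FPKM in the CD34-negative libraries (SD, n = 4). In such bulk libraries fewer cells with a transcript and less of it per cell cannot be told apart. The difference of log2(FPKM + 1) was 1.47 (SE 0.51, 95% interval 0.32 to 2.62), which limma did not call (adjusted p = 0.686). With the description number as a replicate block it was 1.41 (SE 0.33) and also did not pass (adjusted p = 0.0951). Under the block, leaving out either replicate 1 library removes that pair, and Cd48 then passed as higher at a difference of 1.92, with an adjusted p of 0.0137 without the CD34-positive and 0.0139 without the CD34-negative library. In those fits 2.48% and 2.49% of tested genes passed as higher. With quantile normalization the lowest CD34-positive and the highest CD34-negative value overlapped by 0.02 on the log2 scale.

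The likeness of Cd48 between the CD34-positive libraries was close even beside other genes. The SD of log2(FPKM + 1) over the 3 libraries was 0.03, and only 0.378% of tested genes had a smaller one, where the median gene had 0.46. That closeness depended on the scale of the values. The SD was 0.21 with median-ratio scaling, 0.50 after rescaling without ribosomal protein genes and 0.84 with quantile normalization. Over the 4 CD34-negative libraries the SD was 0.86, larger than in 77.4% of tested genes.

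Cd244, the receptor for CD48, also had higher values in CD34-positive cells, with 1 overlap between the groups. It stood at 10.7, 12.4 and 24.7 FPKM in CD34-positive replicates 1, 2 and 3, against 6.86, 1.47, 11.5 and 4.62 FPKM in CD34-negative replicates 1 to 4. The highest value of each group was in a library numbered 4, and CD34-negative replicate 3 passed the lowest CD34-positive library. The mean was 15.9 ± 7.65 FPKM in the CD34-positive libraries (SD, n = 3), against 6.10 ± 4.199 FPKM in the CD34-negative libraries (SD, n = 4). The difference of log2(FPKM + 1) was 1.39 (SE 0.55, 95% interval 0.13 to 2.65), which limma did not call (adjusted p = 0.796; with the replicate block, 0.0997). Cd244 and Ly9 overlap on opposite strands in GENCODE M21, and it is not stated whether counting used strand. Reads from the stretch they share may therefore have counted for either gene, and the length of that stretch was not measured. Cd48 exceeded Cd244 in every library, by 15.0, 12.4 and 6.39 times in CD34-positive and by 19.8, 23.6, 3.81 and 10.4 times in CD34-negative replicates.

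Slamf1, which encodes CD150, was low in both groups, and its values overlapped between them. It stood at 3.50, 0.884 and 0.769 FPKM in CD34-positive replicates 1, 2 and 3, against 3.43, 0.585, 0.717 and 2.71 FPKM in CD34-negative replicates 1 to 4. Both replicate 1 libraries and CD34-negative replicate 4 were high, the other 4 libraries lay below 1 FPKM, and the groups overlapped fully. The difference was -0.07 on the log2(FPKM + 1) scale (SE 0.49, 95% interval -1.19 to 1.05; limma, adjusted p = 0.9999), and its sign changed with the choice of libraries. Slamf1 met the minimum for testing in exactly 3 libraries, and changes of low genes are understated on this scale.

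Cd84, another SLAM receptor, overlapped between the groups. It stood at 14.9, 4.84 and 18 FPKM in CD34-positive replicates 1, 2 and 3, against 13.1, 1.44, 17.2 and 12.7 FPKM in CD34-negative replicates 1 to 4. The replicate 2 libraries were the lowest of their groups. Kit, the stem cell factor receptor, was also lowest there, at 91.1 FPKM in the CD34-positive and 44.7 FPKM in the CD34-negative library, against 213 to 522 FPKM in all other libraries. The Cd84 difference was 0.33 on the log2(FPKM + 1) scale (SE 0.73, 95% interval -1.34 to 2.001; limma, adjusted p = 0.9999; with the replicate block, 0.252). Without CD34-negative replicate 2 it was -0.33 with no block and 0.23 with the replicate block.

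**Figure D2:**
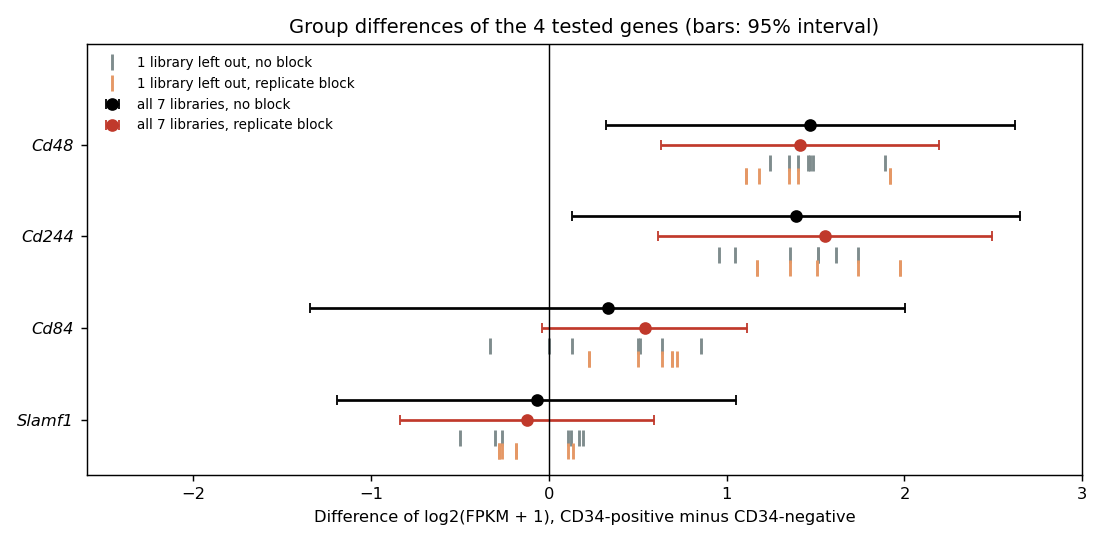
Differences of log2(FPKM + 1), CD34-positive minus CD34-negative, for the 4 tested genes. Dots with bars are the estimate and 95% interval from all 7 libraries, without and with the replicate block, and ticks are the estimates with 1 library left out. All estimates for Cd48 and Cd244 lie above 0 (1.11 to 1.92 and 0.96 to 1.97 when 1 library is left out), while those for Slamf1 lie on both sides.

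Of the 8 genes, 4 met the minimum of 1 FPKM in 3 libraries and were tested, and none passed (limma, adjusted over 9259 genes), where 0% of all tested genes passed in either fit. At an unadjusted p under 0.05, Cd48 and Cd244 were higher and neither Slamf1 nor Cd84 was past it. Cd48 stayed past it in 26 of 28 alternatives and Cd244 in 20 of 28, alternatives that share libraries and are not independent. Cd244 lost it without a filter on low values, with median-ratio scaling, after rescaling without ribosomal protein genes and after rescaling without these and small RNA genes, and in 4 fits that left out 1 library. Without the block 3.38% of tested genes were higher at that p, and with it 12.8% were, again with Cd48 and Cd244 among them. Groups did not overlap for 1 of the 4 tested genes, Cd48, where 2.67% of tested genes had all CD34-positive libraries higher and 3.01% had all of them lower.

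Compared within equal numbers, Cd48 had higher values in the CD34-positive library each time. It was 4.45 times higher within number 2, 1.18 times within number 3, 3.62 times within number 4 and 3.28 times against the library numbered 4a. Cd244 was 8.46, 1.56, 2.16 and 5.35 times higher in CD34-positive cells within numbers 2, 3, 4 and 4a, and Cd84 was 3.37, 1.14, 1.05 and 1.42 times higher. Slamf1 was 1.51, 1.02 and 1.07 times higher within numbers 2, 3 and 4 and lower against the library numbered 4a, at 0.284 times its level. The last 2 of these comparisons share CD34-positive replicate 3, so they are not independent. Cd48, Cd244 and Cd84 were above 0 in all 4 differences, as were 21.4% of tested genes. Number 3, the pair in which the CD34-negative library held the most Cd34, had the smallest difference for Cd48 and Cd244.

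**Figure D3:**
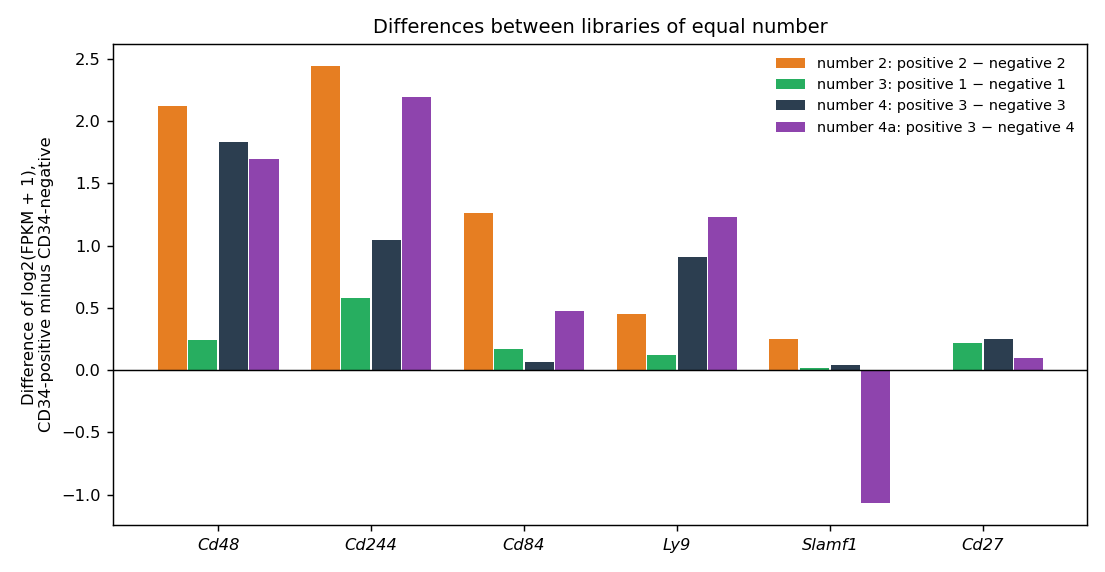
Difference of log2(FPKM + 1) between the CD34-positive and the CD34-negative library of equal number, for 6 genes. Bars are single differences with no error. Cd48 and Cd244 are above 0 in all 4, from 0.24 to 2.12 and from 0.58 to 2.44, Slamf1 is at -1.07 against the library numbered 4a, and the first value of Cd27 is 0 because both libraries list it at 0.

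Ly9, a SLAM receptor of lymphocytes, stood at 0.336, 0.37 and 1.84 FPKM in CD34-positive replicates 1, 2 and 3, against 0.227, 0.51 and 0.208 FPKM in CD34-negative replicates 1, 3 and 4, and was listed at 0 in CD34-negative replicate 2. It reached 1 FPKM in CD34-positive replicate 3 alone and was not tested with the minimum. Without a filter on low values its difference of log2(FPKM + 1) was 0.50 (SE 0.28; limma, adjusted p = 0.990). Its overlap with Cd244 limits these values too. The same annotation places Gm37010 on the strand of Cd48 and Gm42716 on that of Prom1, each overlapping the gene.

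Cd27 stayed below 0.27 FPKM in every library. It stood at 0.239 and 0.26 FPKM in CD34-positive replicates 1 and 3, against 0.0685, 0.0603 and 0.181 FPKM in CD34-negative replicates 1, 3 and 4, and was listed at 0 in both replicate 2 libraries. Cd27 overlaps Vamp1 on the opposite strand in the same annotation. Procr was listed at 0 in 6 libraries and stood at 0.0397 FPKM in CD34-positive replicate 3. Prom1 was listed at 0 in all 7 libraries. None of 14 common housekeeping genes was listed at 0 in any library.

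Levels differed widely along the cluster on chromosome 1. Its genes ranged from Cd48, at 34.6 to 161 FPKM over all libraries, to Slamf6, another SLAM receptor, listed at 0 in all libraries but CD34-positive replicate 3. Itln1, which encodes the lectin intelectin and borders Cd244, stood at 2.43, 0.616 and 16.9 FPKM in CD34-positive replicates 1, 2 and 3, against 1.31, 0, 3.97 and 3.34 FPKM in CD34-negative replicates 1 to 4. Its groups overlapped, and its difference was 0.80 (SE 0.84; limma, adjusted p = 0.9999). Of 6 tested genes flanking the cluster none passed, 3 had differences above and 3 below 0, and the median was 0.12. Ncstn, part of gamma-secretase, averaged 20.8 ± 3.60 FPKM in CD34-positive cells, against 23.7 ± 2.58 FPKM in CD34-negative cells (SD, n = 3 and 4, as for the means that follow). Usf1, a transcription factor, averaged 23.9 ± 12.3 FPKM in CD34-positive cells, against 19.5 ± 12.5 FPKM in CD34-negative cells. Both had overlapping groups.

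**Figure D4:**
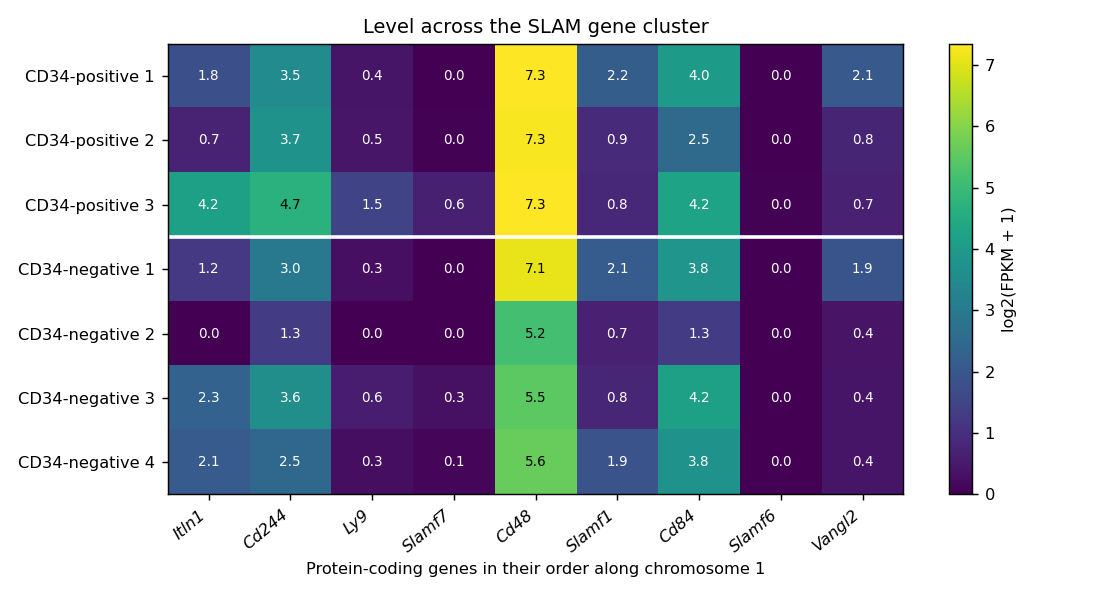
Heat map of log2(FPKM + 1) for 9 protein-coding genes in their order along the cluster, CD34-positive libraries above CD34-negative ones, with the value in each cell. Tma7-ps, which lies between Cd48 and Slamf1, has no row in the table used here. Cd48 stands out in every library, and is lowest in CD34-negative replicates 2, 3 and 4.

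The other listed receptors of the SLAM and CD2 families were near 0. Of 6 listed, 5 had a row and none reached 1 FPKM in any library. Slamf7 was highest, at 0.561 FPKM in CD34-positive replicate 3, and Slamf8 and Cd2, whose product also binds CD48, were listed at 0 throughout. Among the adaptors, Sh2d1a, which encodes SAP, was listed at 0 in all libraries. Sh2d1b1, which encodes the related adaptor EAT-2, stood at 18.3, 25.4 and 17.1 FPKM in CD34-positive replicates 1, 2 and 3, against 16.1, 12.8, 36.0 and 10.3 FPKM in CD34-negative replicates 1 to 4, and the groups overlapped.

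Of 13 adaptors and effectors 11 were tested, none passed in limma, and the median difference was 0.24. Plcg2, a phospholipase of receptor signalling, stood at 89.2, 87.4 and 69.3 FPKM in CD34-positive replicates 1, 2 and 3, against 67.2, 44.9, 34.7 and 27.7 FPKM in CD34-negative replicates 1 to 4. It was the 1 of these 11 whose groups did not overlap, where 2.67% of all tested genes were higher without overlap. Its difference was 0.96 (SE 0.38; limma, adjusted p = 0.799). Vav1, an exchange factor, averaged 61.5 ± 16.6 FPKM in CD34-positive cells, against 41.6 ± 19.1 FPKM in CD34-negative cells. Lyn, a kinase, averaged 25.9 ± 5.20 FPKM in CD34-positive cells, against 39.5 ± 15.5 FPKM in CD34-negative cells. Sh3bp2, an adaptor, averaged 5.16 ± 0.838 FPKM in CD34-positive cells, against 3.70 ± 1.87 FPKM in CD34-negative cells, and the groups of all 3 overlapped.

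For CD27, the ligand gene Cd70 was listed at 0 throughout, and of 10 listed partners 8 were tested and none passed (median difference 0.10). Siva1, which encodes a protein that binds the tail of CD27, had a mean of 113 ± 97.7 FPKM in the CD34-positive libraries (SD, n = 3), against 95.5 ± 101 FPKM in the CD34-negative libraries (SD, n = 4). Its lowest levels were in the libraries numbered 4 and 4a, at 17.0 FPKM in CD34-positive replicate 3 and 18.7 FPKM in both CD34-negative replicates 3 and 4. Traf3, which restrains NF-kB signalling, averaged 4.03 ± 0.531 FPKM in CD34-positive cells, against 3.55 ± 0.646 FPKM in CD34-negative cells. Nfkb2, an NF-kB subunit, averaged 16.2 ± 4.73 FPKM in CD34-positive cells, against 19.4 ± 7.70 FPKM in CD34-negative cells. Birc3, an inhibitor of apoptosis, averaged 5.80 ± 1.16 FPKM in CD34-positive cells, against 7.03 ± 2.51 FPKM in CD34-negative cells. The groups of these genes overlapped.

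Of 12 genes of the protein C pathway 3 were tested, all thrombin-type receptors, and none passed (median difference 0.71). F2rl3, which encodes PAR4, stood at 45.5, 69.0 and 11.3 FPKM in CD34-positive replicates 1, 2 and 3, against 38.5, 21.7, 2.58 and 4.61 FPKM in CD34-negative replicates 1 to 4. F2rl3 was higher in the CD34-positive library within each number, as were 21.4% of all tested genes. Its difference was 1.56 (SE 0.92; limma, adjusted p = 0.9999; with the replicate block, 0.104). F2r, which encodes PAR1, averaged 285 ± 143 FPKM in CD34-positive cells, against 239 ± 155 FPKM in CD34-negative cells. F2rl2, which encodes PAR3, averaged 19.3 ± 7.99 FPKM in CD34-positive cells, against 12.1 ± 6.60 FPKM in CD34-negative cells. Like F2rl3, F2rl2 was higher in the CD34-positive library within each number. F2r and F2rl2 had overlapping groups. Proc, for protein C itself, was listed at 0 throughout, and Thbd, for thrombomodulin, was at 0 in all libraries but 1.

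Of 6 genes related to prominin 4 were tested and none passed (median difference 0.20). Its relative Prom2 was listed at 0 throughout. Hdac6, a deacetylase, averaged 11.7 ± 1.39 FPKM in CD34-positive cells, against 7.42 ± 2.89 FPKM in CD34-negative cells. Flot1, a membrane scaffold, averaged 60.7 ± 23.9 FPKM in CD34-positive cells, against 79.3 ± 20.8 FPKM in CD34-negative cells, and its relative Flot2 averaged 35.1 ± 11.2 FPKM in CD34-positive cells, against 29.9 ± 11.5 FPKM in CD34-negative cells. Arl13b, a cilium protein, averaged 2.17 ± 1.18 FPKM in CD34-positive cells, against 1.86 ± 1.02 FPKM in CD34-negative cells. The groups of all 4 overlapped.

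Of 30 other stem and progenitor surface markers 17 were tested and none passed (median difference 0.37, with 14 above and 3 below 0). Over all tested genes 5747 were above and 3512 below 0. Groups did not overlap, with CD34-positive libraries higher, for 3 of the 17, Cd34 itself, Ly6a and Fcgr2b, where 2.67% of all tested genes did not. The cells were sorted on CD34, so Cd34 should be left out when this count is set beside that share. Ly6a, which encodes Sca-1, had a difference of 3.57 (SE 0.89; limma, adjusted p = 0.606), and Cd34 had one of 3.60 (SE 0.98; adjusted p = 0.647). Fcgr2b, an inhibitory antibody receptor, stood at 46.4, 59.3 and 47.2 FPKM in CD34-positive replicates 1, 2 and 3, against 32.9, 11.8, 27.3 and 10.0 FPKM in CD34-negative replicates 1 to 4, a difference of 1.43 (SE 0.45; limma, adjusted p = 0.662). Itgb3, an integrin chain, averaged 27.5 ± 3.52 FPKM in CD34-positive cells, against 16.8 ± 9.39 FPKM in CD34-negative cells, and Kit averaged 222 ± 116 FPKM in CD34-positive cells, against 266 ± 198 FPKM in CD34-negative cells, both with overlapping groups.

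The genes whose log2(FPKM + 1) was most like that of each tested member over the 7 libraries were ranked by Pearson correlation, as a description of libraries that share kinds and numbers. Cd48 was most like Rbpms (0.994), Stat3 (0.990) and Reps1 (0.987). Stat3, a transcription factor of cytokine signalling, stood at 86.0, 60.8 and 68.3 FPKM in CD34-positive replicates 1, 2 and 3, against 61.2, 14.8, 20.4 and 19.4 FPKM in CD34-negative replicates 1 to 4. Like Cd48 it was high in CD34-negative replicate 1 and low in the other CD34-negative libraries. Cd244 was most like Rnf13 (0.996), Glb1l (0.987) and Txndc16 (0.980), Cd84 most like Wdr37 (0.998), Rnf2 (0.998) and Prdm2 (0.996), and Slamf1 most like Lancl2 (0.985), Nt5c2 (0.980) and C130036L24Rik (0.969).

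Markers of blood, endothelial and epithelial cell types were read in the same libraries. Of 8 T cell markers 7 stayed below 1 FPKM in every library, as did 6 of 7 B cell markers and 7 of 9 macrophage and dendritic markers with a row, and Cd3e, Ms4a1 and C1qa were listed at 0. T cell markers summed to 0.981 to 2.38 FPKM in CD34-positive libraries, against 0.838 to 2.12 FPKM in CD34-negative libraries, and B cell markers to 1.06 to 2.16 FPKM in CD34-positive, against 0.30 to 1.73 FPKM in CD34-negative libraries. Macrophage and dendritic markers summed to 10.3 to 13.9 FPKM in CD34-positive, against 3.75 to 12.8 FPKM in CD34-negative libraries. Of 8 NK markers 4 stayed below 1 FPKM and Ncr1 was listed at 0, but Nkg7, Gzma and Gzmb were present. Nkg7, a cytotoxic granule protein, stood at 279, 686 and 354 FPKM in CD34-positive replicates 1, 2 and 3, against 262, 228, 157 and 74.8 FPKM in CD34-negative replicates 1 to 4, so that the groups did not overlap and its values were higher in CD34-positive cells, as for Cd48. The granzyme gene Gzma had a difference of 2.87 and Gzmb one of -0.55, both with overlapping groups. The sum of NK markers, which Gzmb leads, was 880 to 1319 FPKM in CD34-positive libraries, against 745 to 2632 FPKM in CD34-negative libraries. Mast cell markers summed to 2478 to 3327 FPKM in CD34-positive libraries, against 4074 to 18482 FPKM in CD34-negative libraries, which do not overlap. Among mast cell markers 5 of 7 tested had every CD34-positive library lower, where 3.01% of all tested genes did. The median difference of the 7 was -3.43, with 6 below and 1 above 0. The 1 above 0 was Cpa3, at 1.10 with overlapping groups, and it made up most of each CD34-positive sum. Cpa3 held 1936 to 3044 FPKM in CD34-positive libraries, against 451 to 3134 FPKM in CD34-negative libraries. Erythroid markers summed to 57.9 to 649.6 FPKM in CD34-positive, against 148 to 2091 FPKM in CD34-negative libraries, sums led by the globin gene Hbb-b1, whose groups overlapped. Of the 7 tested erythroid markers the other 6 had every CD34-positive library lower, where 3.01% of all tested genes did, and the median difference of the 7 was -3.69. Gata1, the master regulator of red cell genes, stood at 24.0, 16.3 and 4.61 FPKM in CD34-positive replicates 1, 2 and 3, against 67.1, 167, 55.8 and 70.9 FPKM in CD34-negative replicates 1 to 4. Flt1, an endothelial marker and growth factor receptor, had a difference of 1.68 without overlap, where 2.67% of all tested genes were higher without overlap. Pecam1, which led the endothelial sums, had a difference of 0.51 with overlapping groups. Vwf was not tested and had every CD34-positive library lower, at 0.18 to 0.27 FPKM, against 0.33 to 6.95 FPKM in CD34-negative libraries. Endothelial markers summed to 67.8 to 108 FPKM in CD34-positive, against 39.3 to 87.8 FPKM in CD34-negative libraries, with Kdr, Emcn and Tek at 0, and epithelial markers to at most 0.167 FPKM. Megakaryocyte markers summed to 247 to 776 FPKM in CD34-positive, against 269 to 912 FPKM in CD34-negative libraries. The part of these cell types in the differences of Cd48 and Cd244 was not tested.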

How the data were processed

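The deposited table holds FPKM, 1 value for each gene symbol and library. Per the submitters' processing notes the authors used TopHat2, TopHat and Cuffdiff with the builds mm9 and mm10, without versions or which library each belongs to. The annotation and the use of strand are not stated there. All 7 columns of values were used. Of 20464 rows, 322 rows of 105 repeated symbols were left out, none of them a member. The 9259 genes that reached 1 FPKM in 3 or more libraries were compared as log2(FPKM + 1) with limma 3.58.1 in R 4.3.3 (mean-variance trend, two-sided, Benjamini-Hochberg over all tested genes, threshold 0.05). Differences are CD34-positive minus CD34-negative. FPKM are not counts, so no count model was run and depth is unknown. No label says that the libraries are separate cultures, and the p-values therefore reflect a spread among libraries that may be technical.

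Pairing by description number was checked with the deviations of tested genes from their group means. They correlated at 0.70 within number 3, 0.92 within number 2, and 0.82 and 0.85 within number 4. Between the groups, libraries of numbers 2 and 3 correlated with each other at 0.37 and 0.22. Those of number 4 correlated with numbers 2 and 3 at -0.86 to -0.42. Deviations from the mean of 3 or 4 libraries sum to 0, so libraries of unlike kind tend to negative correlations. Libraries of equal number were treated as pairs and entered as a block in an alternative fit. Libraries numbered 4 also share their low ribosomal protein share, so pairing and kind of library cannot be told apart there. The contrast of number 4 with the others can also raise the correlations within numbers 2 and 3. Other alternatives were the pseudocount, filters, scaling, robust estimation and leaving out each library. Members and lists were chosen with earlier results of these data known. The text names the 8 members, Cd34, Ly6a and Kit, from each list the 4 tested genes of smallest p, and the 3 genes most like each tested member. One gene that this rule takes is not reported here. Other genes, such as Sh2d1b1, were chosen after their values were seen. Protein sequences were not used here. Motif windows came from RefSeq (GRCm38.p6), a build that may differ from the one behind the values. Figures were drawn with matplotlib 3.10.9.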

Additional observations from a re-analysis of the deposited data

Results flagged for a closer look

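In the CD34-negative group, Cd84 had 1 library far below the other 3 on the log2 scale, CD34-negative replicate 2 at 1.44 FPKM, with a gap to its neighbour of 0.86 of the group's range. It was the one such gene among 32 examined, or 3.12% of them, where 5.95% of all tested genes had such a library and chance flags about 1 in 20 groups. CD34-positive replicate 2, which carries the same number, was also the lowest of its group for Cd84, at 4.84 FPKM.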

How the results depend on the processing

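No gene passed in limma with all 7 libraries (smallest adjusted p = 0.256; at an unadjusted p under 0.05, 313 were higher and 210 lower), nor with the replicate block by description number (smallest adjusted p = 0.0767, with 1188 and 846) or by title number. Leaving out 1 library gave 0 to 231 genes called higher and 0 to 125 called lower, with 7 and 3 without CD34-negative replicate 1 in the fit with no block. With the block there were 230 and 81 when CD34-positive replicate 1 was left out, and 231 and 81 when CD34-negative replicate 1 was. There were 32 and 125 when CD34-negative replicate 3 was left out, and 1 and 0 when CD34-positive replicate 3 was. Of the 4 tested members 0 to 1 were then called higher, which was Cd48 without either replicate 1 library. Of 49 tested list genes 0 to 3 were. These were Cd34 (4.39), on which the cells were sorted, Ly6a (4.38) and F2rl3 (1.53), in the same fits. There 2.48% and 2.49% of all tested genes passed as higher.

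Cd48 and Cd244 kept a positive difference in all 28 alternatives, Cd48 from 1.11 to 1.92 (adjusted p 0.0137 to 0.999998) and Cd244 from 0.96 to 1.97 (adjusted p 0.0547 to 0.999998). These alternatives are not independent, because they share libraries and several give the same estimate. The Cd48 groups did not overlap, so leaving out 1 library could not turn its sign. Nor could the replicate block turn that of Cd244, which was above 0 within every number. Cd48 was 1.11 to 1.92 when 1 library was left out with the block. Slamf1 ranged from -0.50 to 0.19 with 1 library left out, and turned positive with the block by title number (0.10) and in the number 2 and 3 libraries alone with the replicate block (0.14), the last chosen after seeing the data. Cd84 ranged from -0.33 to 0.85 with 1 library left out and no block, and from 0.23 to 0.72 with the block.

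Among list genes whose sign turned, none of them called in any fit, Siva1 turned to -0.10 with the replicate block by either number, with CD34-negative replicates 3 and 4 averaged, and with the block and no filter, and to -0.075 in the number 2 and 3 libraries alone. Kit turned to -0.30 with quantile normalization, -0.10 with median-ratio scaling and -0.12 after rescaling without ribosomal protein and small RNA genes, a choice made after seeing the data. Birc3 turned to 0.022 in the number 2 and 3 libraries alone. With 1 library left out and no block, Siva1 ranged from -0.34 to 1.45, Kit from -0.69 to 0.56, Nfkb2 from -0.40 to 0.016, Arl13b from -0.12 to 0.43, F2r from -0.22 to 1.01, Itln1 from -0.18 to 1.56 and Usf1 from -0.0093 to 0.75. With the block, Siva1 ranged from -0.13 to -0.075 (-0.0904 without either replicate 2 library), Kit from -0.13 to 0.57 and Birc3 from -0.33 to 0.022.

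Within equal numbers, rescaling without ribosomal protein genes moved Cd48 to 2.58, Ly9 to 1.40 and Cd27 to 0.41 in number 4, and Procr to 0.087 in numbers 4 and 4a. A pseudocount of 0.1 moved Ly9 to 2.23, 1.67 and 2.65 in numbers 2, 4 and 4a, Cd27 to 1.01, 1.17 and 0.36 in numbers 3, 4 and 4a, and Procr to 0.48 in numbers 4 and 4a. The cause of these changes was not tested. Depth is unknown, so whether a value of 0 reflects absence cannot be told for Prom1, Procr or Cd27.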
